A study of Mus musculus with 200 samples.

Results

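A set of 8 genes of the antioxidant response was followed after closed-head injury (CHI), a blow to the intact skull, and after sham surgery, in the mouse brain. The genes are Nfe2l2, Hmox1, Nqo1, Gclc, Gclm, Txnrd1, Srxn1 and Slc7a11, taken by name from the gene table, and they are 8 of the 56941 genes it lists. Each of the 8 names had 1 row. RNA was sequenced from one hemisphere of each of 200 mice, 67 with sham surgery (anaesthesia and scalp incision) and the others with CHI, taken at 9, 24 or 72 h. The mice belonged to 4 strains. C57BL/6J, the common laboratory strain, gave 61 mice, IL-1R1 gKO gave 55, IL-1R1 eRestore gave 50 and IL-1R1 nRestore gave 34. At 9, 24 and 72 h the CHI groups held 15, 14 and 14 C57BL/6J mice, 13, 12 and 12 IL-1R1 gKO mice, 12, 9 and 12 IL-1R1 eRestore mice, and 6, 8 and 6 IL-1R1 nRestore mice. The sham groups held 6 mice each, except for 5 IL-1R1 eRestore mice at 24 h and 4, 5 and 5 IL-1R1 nRestore mice. Mice were 3.3 to 7.67 months old, 98 male and 102 female. No agent other than anaesthesia was named for any group. The labels do not say how the 3 IL-1R1 strains were made, nor in which cells the receptor is lost or restored, and the names are used here as labels only.

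The table gives estimated counts per gene, and total counts per mouse ranged from 14857985 to 57355676 (median 20258936). By rank over all genes kept, no library stood far apart. The median Spearman correlation of a library with the others of its time point was 0.9746 at the lowest. This measure weighs small sets of genes little, and the summed TPM of 10 choroid plexus markers ran from 7.35 to 6438 among mice at 9 h. No pair of libraries of a group agreed within sampling noise. The receptor gene Il1r1 did not check the strain labels. Its normalized counts had a median of 119.3 in C57BL/6J mice (66.4 to 297), 225 in mice labelled IL-1R1 gKO (138.4 to 399.6), 176.1 in IL-1R1 eRestore mice (118.2 to 377) and 213 in IL-1R1 nRestore mice (134.9 to 324). Il1r1 RNA was thus not lower in the mice labelled gKO, and counts over the whole gene do not show whether a part of it was deleted. Differences drawn below between strains rest on the labels. Markers of brain tissue were abundant, such as the neuronal Snap25 with a median TPM of 3611 and the myelin gene Mbp with 2557.

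Nfe2l2 encodes Nrf2, a transcription factor that Keap1 holds at a low level by marking it for degradation. When oxidants or electrophiles modify Keap1, Nrf2 builds up, pairs with small Maf proteins and binds the antioxidant response element near its target genes. Because this step acts on the protein, target genes can change while Nfe2l2 RNA does not. The other 7 genes are textbook targets. Gclc and Gclm are the catalytic and modifier subunits of glutamate-cysteine ligase, the rate-limiting enzyme of glutathione synthesis, and Slc7a11 is the cystine transporter that brings in its cysteine. Srxn1 repairs overoxidized peroxiredoxins, Txnrd1 reduces thioredoxin, Hmox1 degrades heme, and Nqo1 reduces quinones. In the brain the pathway is studied mostly in astrocytes.

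In the GENCODE annotation of build GRCm39 all 8 are protein-coding genes. Nfe2l2 spans chr2:75504739-75534985 on the minus strand, Hmox1 chr8:75820241-75827217 on the plus strand and Nqo1 chr8:108113835-108129934 on the minus strand. Gclc spans chr9:77661797-77701770, Gclm chr3:122039126-122065061, Txnrd1 chr10:82669785-82733546 and Srxn1 chr2:151947436-151957687, all on the plus strand, and Slc7a11 spans chr3:49846975-50398070 on the minus strand. Hmox1 and Nqo1 overlap no other annotated gene. The other 6 overlap at least 1, and since the strandedness of the libraries is not given in the sources used here, reads of an overlapping gene cannot be told apart there.

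The bases before the start site are shown for Srxn1, Gclm and Slc7a11, since these are a gene that rose, a gene that moved little and a gene that fell after CHI. The sequences are the 250 bases upstream of the start in RefSeq (build GRCm38.p6), written 5′ to 3′ on the gene's strand, and capitals mark the letters TGACNNNGC, the core of the antioxidant response element, on either strand. Srxn1 lies at chr2:152105274-152105523 (plus), Gclm at chr3:122245307-122245556 (plus) and Slc7a11 at chr3:50443614-50443863 (minus).
Srxn1: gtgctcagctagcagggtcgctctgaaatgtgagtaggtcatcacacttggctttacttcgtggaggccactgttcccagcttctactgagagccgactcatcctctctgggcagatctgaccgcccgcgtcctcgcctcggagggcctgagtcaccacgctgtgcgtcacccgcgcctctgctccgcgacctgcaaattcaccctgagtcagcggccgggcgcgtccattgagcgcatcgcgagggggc
Gclm: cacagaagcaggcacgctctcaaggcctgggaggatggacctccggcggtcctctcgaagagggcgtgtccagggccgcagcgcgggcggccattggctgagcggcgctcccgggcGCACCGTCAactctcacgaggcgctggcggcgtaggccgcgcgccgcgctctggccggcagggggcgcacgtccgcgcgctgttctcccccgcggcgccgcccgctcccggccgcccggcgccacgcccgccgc
Slc7a11: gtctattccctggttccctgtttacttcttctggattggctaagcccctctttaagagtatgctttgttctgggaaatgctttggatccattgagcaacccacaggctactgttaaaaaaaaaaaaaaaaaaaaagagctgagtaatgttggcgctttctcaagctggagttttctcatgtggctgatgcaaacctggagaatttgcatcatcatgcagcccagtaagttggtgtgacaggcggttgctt
In Srxn1 the letters did not occur before the start, but GCTAGGTCA, a match on the other strand, began at base 279 of the 300-base window that runs from 250 bases before to 50 after the start. In Gclm the match GCACCGTCA began at base 117. Of the 8 genes, 6 were in the RefSeq promoter table, and Hmox1 and Gclc were not. Nfe2l2 also held a match (TGACTCCGC, from base 11), as did 1 of 3 windows of Txnrd1, whereas Nqo1 and Slc7a11 held none. Among all 32851 windows of this length, 12.4% held the letters. Only this spelling of the element was searched, so a window without a match is not shown to lack the element. A match is a description of the letters only.

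Levels between genes were compared in TPM, which corrects for transcript length. Over all 200 mice the order of median TPM was Srxn1 (82.4), Txnrd1 (41.2), Gclm (39.5), Gclc (37.6), Slc7a11 (14.2), Nfe2l2 (13.0), Nqo1 (4.84) and Hmox1 (4.78). The ranges of Txnrd1 (24.4 to 63.3), Gclm (29.2 to 57.8) and Gclc (27.4 to 49.0) overlapped widely, as did those of Nqo1 (2.00 to 9.99) and Hmox1 (1.48 to 26.6). Srxn1, from 61.0 to 128, overlapped with the upper end of Txnrd1 only. The median counts behind these values were 1906.5 for Srxn1, 326.5 for Nfe2l2, 73.5 for Nqo1 and 71 for Hmox1, so that Nqo1 and Hmox1 are the least precisely measured. Within groups the coefficient of variation of CHI mice had a median over the 12 groups of 5.25% for Srxn1, 5.82% for Gclm, 5.85% for Gclc, 6.15% for Txnrd1, 11.9% for Nfe2l2, 16.6% for Slc7a11, 19.3% for Nqo1 and 23.1% for Hmox1.

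In sham mice 2 genes differed in level between the time points. Slc7a11 had a mean TPM of 10.1 ± 2.82 (SD, n = 22) at 9 h, against 16.2 ± 3.38 (n = 22) at 24 h and 16.2 ± 3.47 (n = 23) at 72 h. Txnrd1 had 33.1 ± 3.61 at 9 h, 43.1 ± 5.34 at 24 h and 43.5 ± 6.99 at 72 h. Srxn1, Gclc, Gclm, Nfe2l2, Nqo1 and Hmox1 lay within 1 SD of each other at the 3 times. Mice killed at 9 h came from other experiments than those killed later, and their tissue was taken at other times of day, so time after surgery, time of day and experiment cannot be told apart in these sham levels, which were not tested.

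The first comparison asks which of the genes respond to injury at 9 h in all strains together. In a fit over the 4 strains, with 46 CHI and 22 sham mice, 6 of the 8 genes were DEGs, 5 higher and 1 lower in CHI mice. Srxn1 was 1.32-fold higher (log2 fold change 0.41, SE 0.03, adjusted p = 1.61e-17), Gclc 1.24-fold higher (0.30, SE 0.03, adjusted p = 1.99e-11) and Hmox1 1.75-fold higher (0.81, SE 0.12, adjusted p = 2.65e-07). Slc7a11 was lower, at 0.711 of the sham level (log2 fold change −0.49, SE 0.07, adjusted p = 2.29e-08). Txnrd1 (0.11, SE 0.03, adjusted p = 0.0013) and Gclm (0.08, SE 0.03, adjusted p = 0.0395) were slightly higher, and the call of Gclm ended under several other settings, given in the closing section. Nqo1 (−0.12, adjusted p = 0.423) and Nfe2l2 itself (−0.04, 95% interval −0.15 to 0.06, adjusted p = 0.598) did not pass the test. DEGs had an adjusted p under 0.05 in edgeR's quasi-likelihood test, and over all 16657 genes tested 26.5% were DEGs, 12.7% higher and 13.8% lower.

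**Figure D1:**
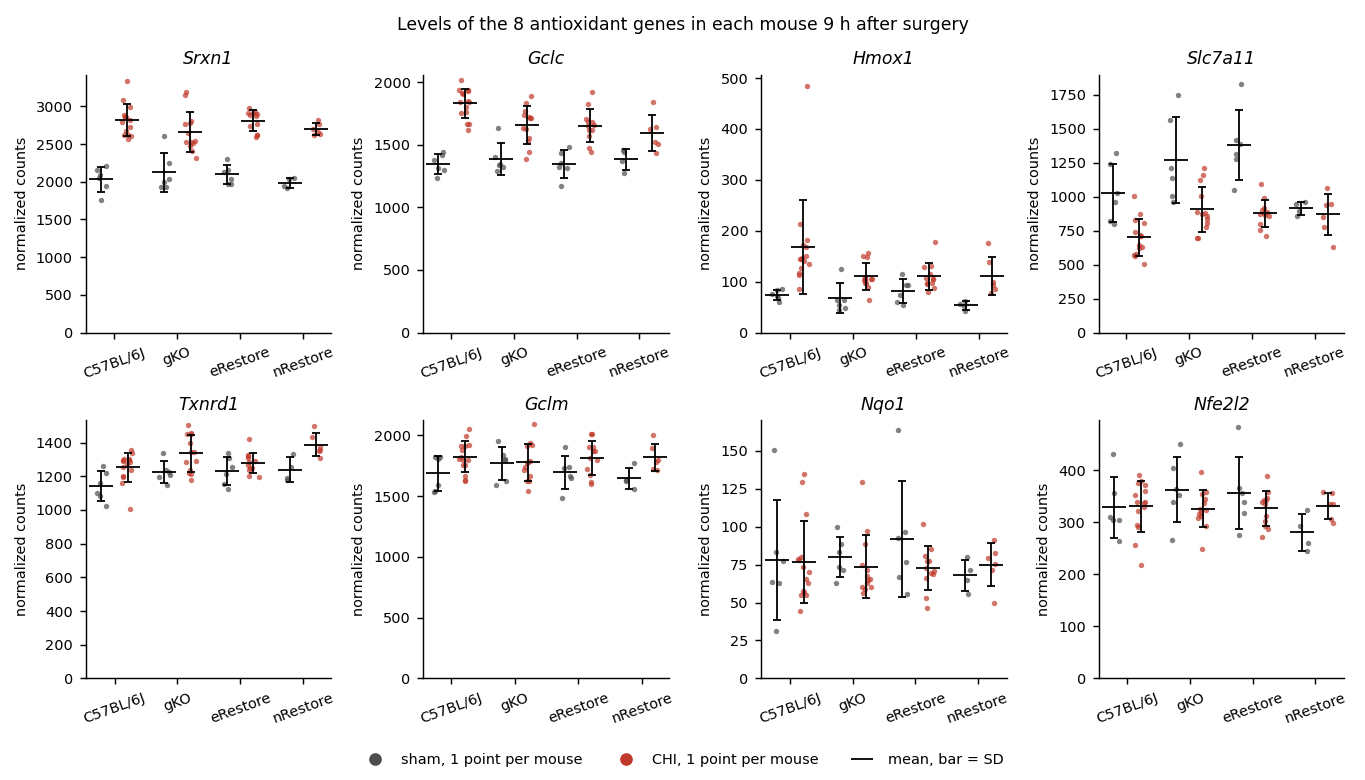
Normalized counts (vertical axes, from 0) of the 8 genes in every mouse 9 h after surgery, by strain, with 1 point per mouse, the mean and the SD. Every CHI point of Srxn1 lies above the highest sham point in C57BL/6J, eRestore and nRestore mice, whereas the points of Nqo1 and Nfe2l2 overlap in each strain. The share of all genes without such overlap was not counted.

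Within single strains at 9 h, 4 of the 8 genes were DEGs in C57BL/6J mice (14.1% of all genes tested), 3 in IL-1R1 eRestore mice (7.34%), 2 in IL-1R1 nRestore mice (0.608%) and 0 in mice labelled IL-1R1 gKO (0.199%). In the IL-1R1 gKO fit 4 members had an unadjusted p under 0.05 with edgeR, as did 1784 of all 16604 genes tested. DESeq2 called 3 members there and 218 of the 16604 genes. Where counts of DEGs differ between strains, so does the share of all genes called, and group sizes differ too.

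Over the 12 CHI groups of all time points, Srxn1 had the lowest median coefficient of variation of the 8 (5.25%), though not the lowest in each group at 9 h. At 9 h its normalized counts in C57BL/6J mice were 2566 to 3343 (median 2817) after CHI and 1758 to 2210 (median 2067) after sham surgery. In IL-1R1 eRestore mice they were 2598 to 2981 (median 2879) against 1972 to 2308 (median 2083). All CHI mice lay above all sham mice in both strains. The share of all genes tested that separate in this way was not counted, here or for the genes below. Separation is therefore not shown to be particular to these genes. In IL-1R1 nRestore mice the 6 CHI values ran from 2614 to 2824 (median 2680), above the 4 sham values of 1913, 1940, 2040 and 2044. In mice labelled IL-1R1 gKO the groups overlapped, with 2311 to 3184 (median 2547) against 1928 to 2604 (median 2019), and 6 of 13 CHI mice lay above all sham mice. The log2 fold change was 0.46 (SE 0.06, adjusted p = 9.08e-06) in C57BL/6J, 0.40 (SE 0.05, adjusted p = 7e-05) in eRestore, 0.47 (SE 0.07, adjusted p = 0.0064) in nRestore and 0.33 (SE 0.08, adjusted p = 0.0771) in gKO mice.

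The sham mouse labelled IL-1R1 gKO with the highest Srxn1 value (2604) was also the highest of its group in Gclc and Hmox1. Without this mouse, replicate 6, Srxn1 (log2 fold change 0.39, adjusted p = 0.0237) and Hmox1 (0.99, adjusted p = 0.0139) passed the test in gKO mice, so that the count of DEGs among the 8 was 2 in place of 0. In the fit over the 4 strains its removal left the count at 6. The share of all genes called without this mouse was not recorded, so these counts are not shown to be particular to the 8 genes.

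Gclc rose by less than Srxn1. Its normalized counts in C57BL/6J mice were 1621 to 2019 (median 1844) after CHI and 1232 to 1442 (median 1347) after sham surgery, with no overlap. In eRestore mice they were 1442 to 1921 (median 1654) against 1169 to 1482 (median 1340), and 10 of 12 CHI mice lay above all sham mice. In gKO mice they were 1387 to 1891 (median 1710) against 1289 to 1634 (median 1343), with 7 of 13 above. In nRestore mice they were 1434 to 1843 (median 1574) against sham values of 1276, 1367, 1444 and 1457, with 5 of 6 above. The log2 fold change was 0.43 (SE 0.05, adjusted p = 7.37e-06) in C57BL/6J and 0.27 (SE 0.06, adjusted p = 0.00974) in eRestore mice, where the call ended in the largest experiment alone (0.31, adjusted p = 0.155). It did not pass the test in gKO (0.25, adjusted p = 0.124) or nRestore mice (0.28, adjusted p = 0.16). Its partner subunit Gclm moved much less, with log2 fold changes of 0.00 to 0.10 in the 4 strains and no call in any of them. Gclm values in C57BL/6J mice were 1625 to 2057 after CHI and 1538 to 1825 after sham surgery.

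Hmox1 had the largest change of the 8 in the fit over the strains. Its median coefficient of variation over the 12 CHI groups of all time points, 23.1%, was the highest of the 8. The normalized counts of C57BL/6J mice were 84.8 to 485 (median 144.6) after CHI and 59.3 to 85.5 (median 73.1) after sham surgery, and 14 of 15 CHI mice lay above all sham mice. The log2 fold change was 1.13 (SE 0.24, adjusted p = 0.00288) with the mouse at 485 and 0.97 without it. In nRestore mice the 6 CHI values ran from 77.6 to 175.3 (median 95.9), above sham values of 42.3, 52.6, 55.4 and 62.5, with a log2 fold change of 1.27 (SE 0.25, adjusted p = 0.0337). Leaving out sham replicate 1, 3 or 4 ended that call (adjusted p 0.0928, 0.152 and 0.107). The groups overlapped in gKO mice, with 63.9 to 155.6 (median 105.9) against 44.1 to 124.8 (median 59.9), where the log2 fold change of 0.71 (SE 0.20) did not pass (adjusted p = 0.15). They also overlapped in eRestore mice, with 78.95 to 178.8 (median 105.9) against 53.3 to 115 (median 83.1) and a log2 fold change of 0.43 (SE 0.18, adjusted p = 0.142).

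Slc7a11 went the other way. Among C57BL/6J mice its normalized counts were 502.5 to 1004 (median 709) after CHI and 796 to 1319 (median 994) after sham surgery, and 11 of 15 CHI mice lay below all sham mice. In eRestore mice they were 712 to 1093 (median 876) against 1047 to 1833 (median 1353), with 11 of 12 below. In gKO mice they were 697 to 1208 (median 874) against 958 to 1747 (median 1173), with 9 of 13 below. In nRestore mice the groups overlapped, with 632 to 1065 (median 897) against sham values of 856, 892, 947 and 960.5. The log2 fold change was −0.56 (SE 0.12, adjusted p = 0.0033) in C57BL/6J and −0.66 (SE 0.10, adjusted p = 0.000422) in eRestore mice, and it did not pass in gKO (−0.45, SE 0.13, adjusted p = 0.152) or nRestore mice (−0.10, SE 0.13, adjusted p = 0.807).

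Txnrd1 was not a DEG in any single strain, with log2 fold changes from 0.04 in eRestore to 0.15 in nRestore mice. In C57BL/6J mice its values were 1007 to 1359 (median 1287) after CHI and 1025 to 1264 (median 1130) after sham surgery. Nqo1 and Nfe2l2 had no common direction. Nqo1, with 44.7 to 135 normalized counts in C57BL/6J CHI mice and 31.0 to 150 in sham mice, had log2 fold changes from −0.35 (eRestore, adjusted p = 0.263) to 0.15 (nRestore, adjusted p = 0.84). Nfe2l2, with 218 to 390 (median 339) in C57BL/6J CHI mice and 264 to 431 (median 308) in sham mice, had log2 fold changes from −0.16 (gKO, adjusted p = 0.605) to 0.37 (nRestore, SE 0.11, adjusted p = 0.158). In nRestore mice 4 of 6 CHI mice lay above the highest sham value of Nfe2l2, 324.

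**Figure D2:**
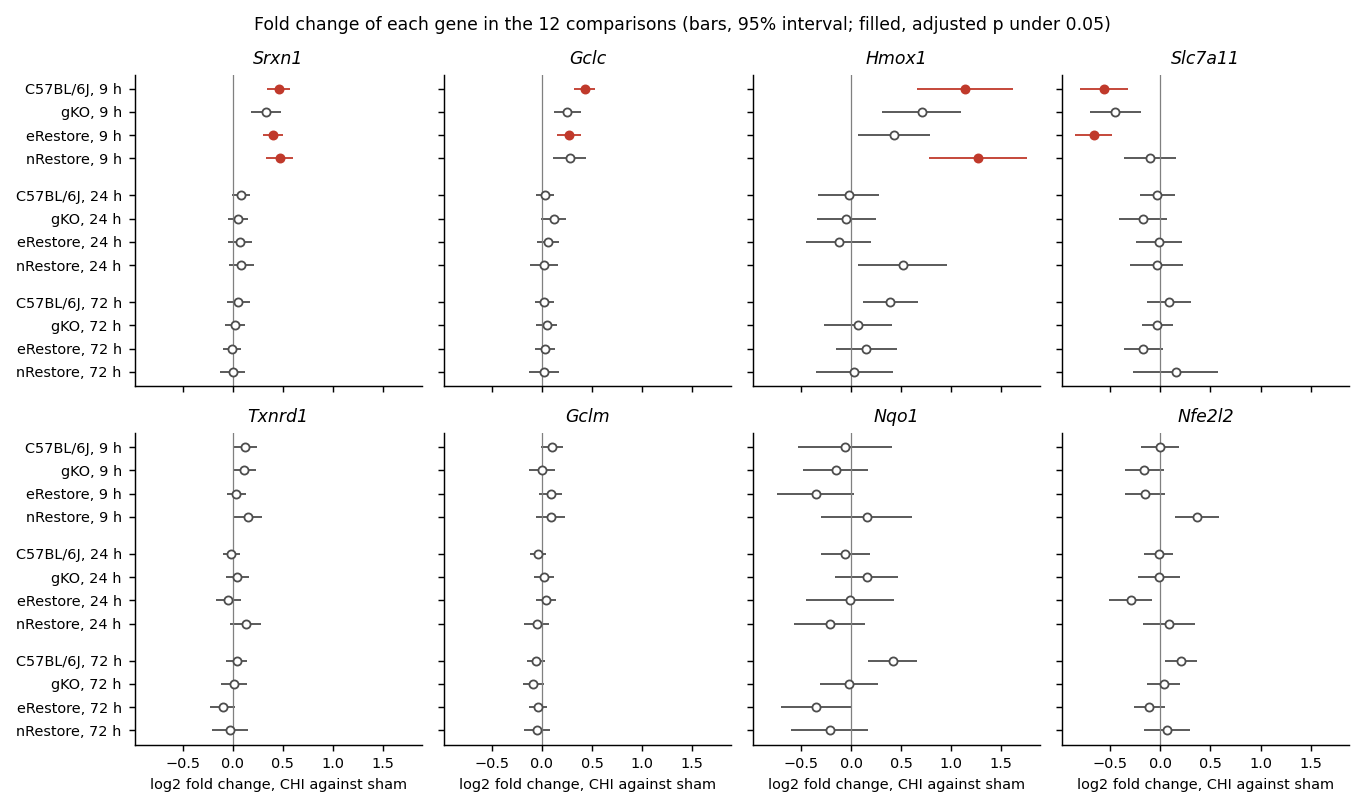
Log2 fold change of CHI against sham (horizontal axis) for each gene in the 12 comparisons of strain and time (vertical axis), with 95% intervals; filled points passed the test. The filled points are 9 in number and all at 9 h; at 24 and 72 h Srxn1 lies close to 0 in each strain.

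Because an effect called in one strain only need not differ from that in another, the difference of the CHI effect from C57BL/6J mice was tested. None of the 8 genes passed in any of the 9 comparisons of strain and time (edgeR, 0 of 72 values; 7 had an unadjusted p under 0.05 and DESeq2 called 0). Of all genes, 0%, 0.00541% and 0% passed for gKO mice at 9, 24 and 72 h, 0.0107%, 0.0108% and 0% for eRestore mice, and 0.00534%, 0% and 0.00543% for nRestore mice. An unadjusted p under 0.05 was found in edgeR at 9 h for 1199 (gKO), 1608 (eRestore) and 1042 (nRestore) of 18741 genes. In the same order it was 1574, 691 and 754 of 18495 at 24 h, and 529, 793 and 900 of 18408 at 72 h. At 9 h the smallest adjusted p was 0.456, for Hmox1 in eRestore mice (difference of log2 fold changes −0.72, SE 0.30). The difference for Slc7a11 in nRestore mice was 0.48 (SE 0.20, adjusted p = 0.789), and that for Srxn1 ranged from −0.13 (SE 0.08) in gKO to −0.01 (SE 0.09) in nRestore mice. At 72 h the difference of Nqo1 between eRestore and C57BL/6J mice was −0.76 (SE 0.21, unadjusted p = 0.000707 in edgeR, adjusted p = 0.99).

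The strains were also compared with C57BL/6J without injury. Among sham mice 1 of 72 values passed (9 had an unadjusted p under 0.05), Hmox1 at 24 h, lower in nRestore mice (log2 difference −0.56, SE 0.17, adjusted p = 0.0469), where 4.44% of all genes passed. In the other 8 comparisons of sham mice none of the 8 genes passed, and of all genes 0.63%, 3.99% and 0.293% did for gKO mice at 9, 24 and 72 h, 2.29%, 1.01% and 0.456% for eRestore mice, and 0.694% and 0.598% for nRestore mice at 9 and 72 h. An unadjusted p under 0.05 was found in edgeR at 9 h for 1406 (gKO), 2990 (eRestore) and 2506 (nRestore) of 18741 genes. In the same order it was 3527, 2649 and 3817 of 18495 at 24 h, and 1475, 1445 and 1800 of 18408 at 72 h. The normalized counts of Hmox1 were 25.1 to 65.1 (median 50.2) against 58.7 to 94.7 (median 74.7). The call ended when experiment replaced age among the covariates (adjusted p = 0.0917). Slc7a11 in sham mice at 9 h was 0.41 (SE 0.14) higher on the log2 scale in eRestore than in C57BL/6J mice, which did not pass (adjusted p = 0.115). Between males and females, 0% to 0.00565% of all genes passed as different in the CHI effect. At 9, 24 and 72 h, 370 of 17639, 916 of 17619 and 657 of 17707 genes had an unadjusted p under 0.05 in edgeR. For the 8 genes the CHI effect did not pass as different between the sexes (0 of 24 values, with 2 at an unadjusted p under 0.05 and 0 by DESeq2). The smallest unadjusted p was 0.0166, for Hmox1 at 9 h (males minus females −0.55, SE 0.22, adjusted p = 1 in edgeR).

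The next question is whether the changes lasted. At 24 and 72 h none of the 8 genes was a DEG in any strain (edgeR, 0 of 64 values; 5 had an unadjusted p under 0.05 and DESeq2 called 0). Of all genes, 0.404% and 0% were DEGs in C57BL/6J mice at 24 and 72 h, 0.0059% and 0% in gKO mice, 0% and 0.00605% in eRestore mice, and 0% and 0.0121% in nRestore mice. An unadjusted p under 0.05 was found in edgeR at 24 and 72 h for 1504 of 16577 and 869 of 16875 genes in C57BL/6J mice. In gKO mice it was 1502 of 16953 and 376 of 16709, in eRestore mice 1494 of 16505 and 943 of 16536, and in nRestore mice 740 of 17059 and 930 of 16508. The fits over the 4 strains had 0 of 8 at 24 h (43 CHI and 22 sham mice; 1.96% of all genes; 2 genes at an unadjusted p under 0.05) and 0 of 8 at 72 h (44 and 23 mice; 0.717% of all genes; 2 genes at an unadjusted p under 0.05 and 0 by DESeq2). In these fits 2494 of 16704 genes at 24 h and 1273 of 16596 at 72 h had an unadjusted p under 0.05 in edgeR. At 24 h Srxn1 had a log2 fold change of 0.08 (95% interval 0.03 to 0.12, adjusted p = 0.0745) and was called by DESeq2 (adjusted p = 0.0483), which called 472 of 16704 genes there. Gclc had 0.06 (0.01 to 0.11, adjusted p = 0.208), Hmox1 0.06 (−0.11 to 0.23, adjusted p = 0.795) and Slc7a11 −0.07 (−0.18 to 0.05, adjusted p = 0.647). These intervals do not reach the sizes seen at 9 h. In the IL-1R1 strains, CHI and sham mice at 24 h differed in experiment and age. Experiment NiL-1-21 gave CHI mice of gKO, eRestore and nRestore but none of their sham mice. These CHI groups reached 7.4, 7.4 and 7.2 months of age, and their sham groups 5.3. Age was a covariate, yet CHI and experiment cannot be fully told apart there. With experiment in place of age the count over the strains at 24 h stayed at 0 (213 of 16704 genes called). At 72 h Hmox1 had 0.18 (0.02 to 0.34, adjusted p = 0.566), Gclm −0.05 (−0.09 to −0.01, adjusted p = 0.469), Srxn1 0.03 and Gclc 0.03.

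**Figure D3:**
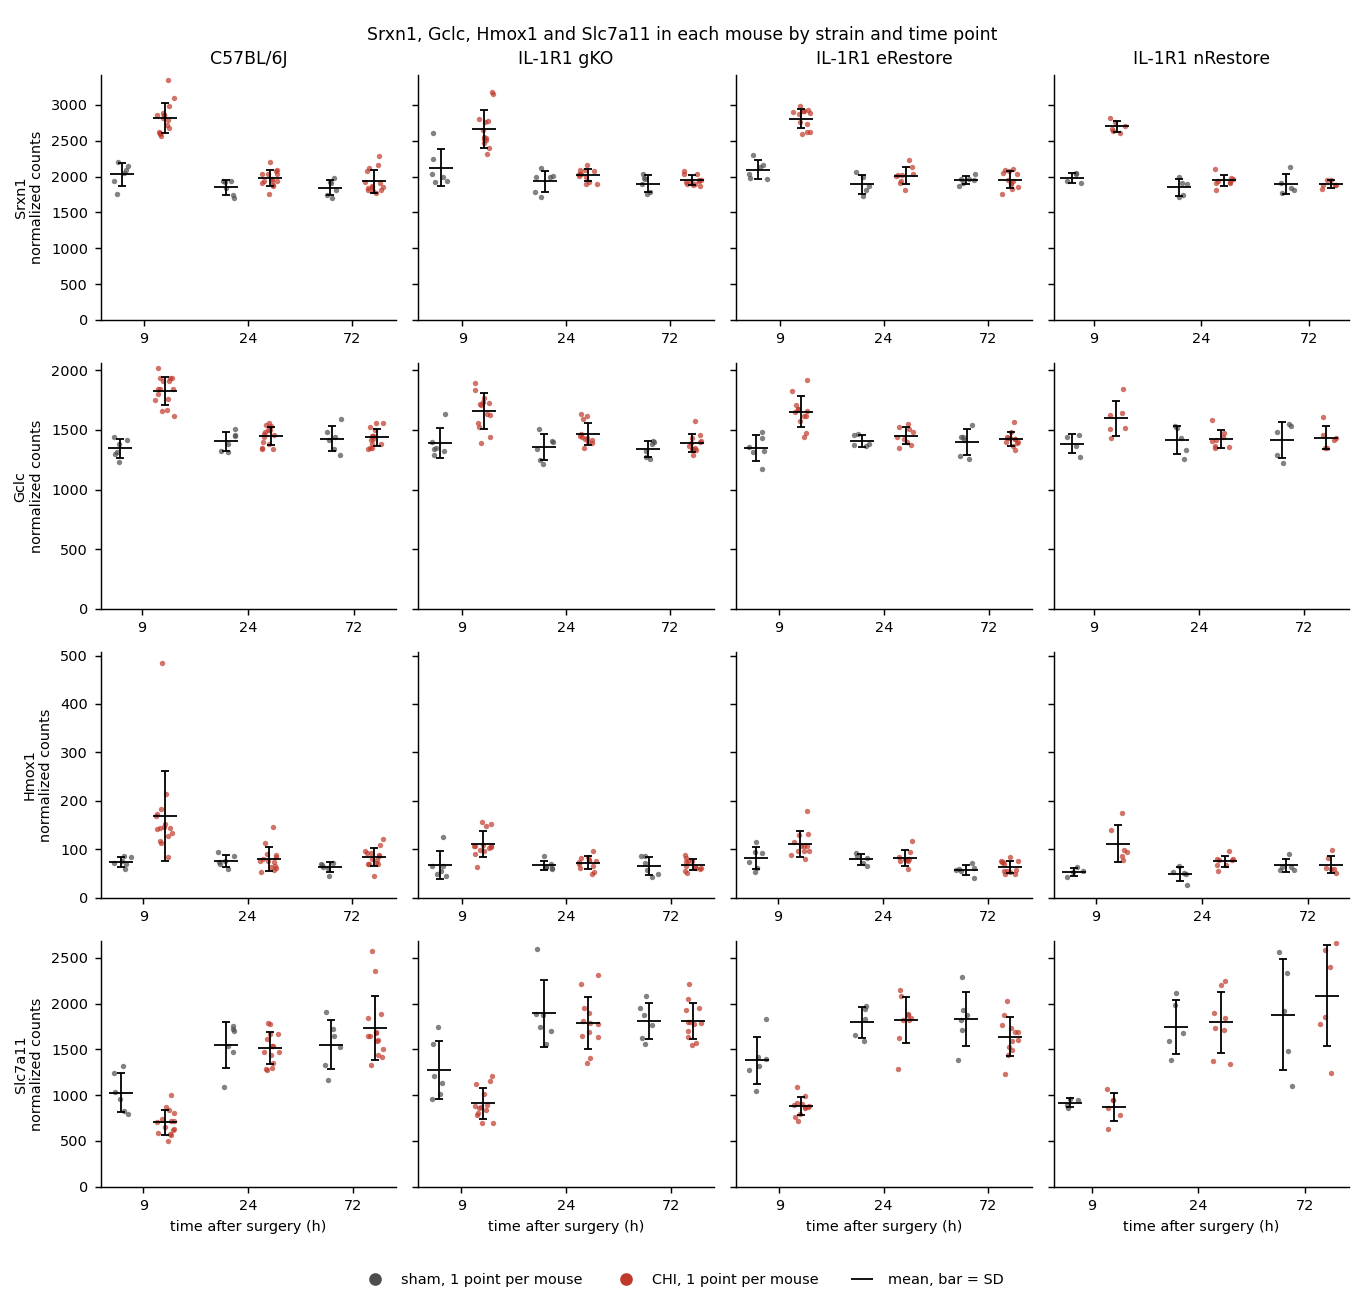
Normalized counts (vertical axes, from 0) of Srxn1, Gclc, Hmox1 and Slc7a11 in every mouse at 9, 24 and 72 h (horizontal axis) by strain, with mean and SD. At 9 h the CHI means of Srxn1, Gclc and Hmox1 lie above the sham means in each strain, and at 24 and 72 h the points overlap; the means of Slc7a11 are lower at 9 h than later after both surgeries.

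The size of the effect was compared between the times within each strain. For C57BL/6J mice the effect at 9 h exceeded that at 24 h for Srxn1 (difference of log2 fold changes 0.38, SE 0.07, adjusted p = 0.000402), Gclc (0.39, SE 0.06, adjusted p = 5.13e-05) and Hmox1 (1.13, SE 0.26, adjusted p = 0.00363), and it was lower for Slc7a11 (−0.51, SE 0.16, adjusted p = 0.0467), where 5.05% of all genes passed. Against 72 h, Srxn1 (0.42), Gclc (0.43) and Slc7a11 (−0.66) passed and Hmox1 did not (0.75, SE 0.26, adjusted p = 0.075), where 6.92% of all genes passed. Srxn1 alone passed in eRestore mice (0.32 against 24 h, adjusted p = 0.0362, 0.195% of all genes; 0.41 against 72 h, adjusted p = 0.000218, 0.551% of all genes). It also alone passed in nRestore mice (0.37, adjusted p = 0.0428, 0.114% of all genes; 0.45, adjusted p = 0.00701, 0.18% of all genes). In gKO mice no gene of the 8 passed in edgeR (0.349% and 0.0776% of all genes). DESeq2 called Srxn1 in both comparisons, and it also called more of all genes there than edgeR did. Between 24 and 72 h 0 of 32 values passed, 0 had an unadjusted p under 0.05, and DESeq2 called 0 (0.0166% of all genes in C57BL/6J mice and 0% in the others). Among all genes, 1007 of 18124 in C57BL/6J, 467 of 18052 in gKO, 589 of 17963 in eRestore and 558 of 18346 in nRestore mice had an unadjusted p under 0.05 in edgeR. Experiments were not shared between 9 h and later times, so time and experiment cannot be told apart here.

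Of the 64 values at 24 and 72 h in single strains, the 5 with an unadjusted p under 0.05 did not pass adjustment. Hmox1 in nRestore mice at 24 h was 55.6 to 96.3 (median 77.0) after CHI and 25.1 to 65.1 (median 50.2) after sham surgery, and 7 of 8 CHI mice lay above all sham mice (log2 fold change 0.52, SE 0.23, adjusted p = 0.955). Nfe2l2 in eRestore mice at 24 h was 303 to 422 (median 323) against 314 to 476 (median 338), with a log2 fold change of −0.30 (SE 0.11, adjusted p = 0.416). The other 3 values were in C57BL/6J mice. At 72 h Nqo1 in C57BL/6J mice was 74.7 to 132 (median 90.1) after CHI and 60.2 to 85.97 (median 68.5) after sham surgery, with a log2 fold change of 0.41 (SE 0.13, adjusted p = 0.582). Hmox1 (0.39, SE 0.14, adjusted p = 0.808) and Nfe2l2 (0.21, SE 0.08, adjusted p = 0.864) pointed the same way there. The other 3 strains did not share this direction for Nqo1, with log2 fold changes of −0.02 in gKO, −0.35 in eRestore and −0.22 in nRestore mice.

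At 9 h the mice came from 3 experiments, eIL-1-76, eIL-1-80 and TM-2-33, and the difference of CHI and sham means was taken within each strain and experiment. Srxn1 was higher after CHI in all 8 such sets (0.19 to 0.66 on the log2 scale), as were Gclc (0.20 to 0.45), Hmox1 (0.11 to 1.13) and Txnrd1 (0.02 to 0.25). Slc7a11 was lower in all 8 (−0.98 to −0.09). Gclm was higher in 5 of 8, Nqo1 in 3 and Nfe2l2 in 2. When the fit over the strains was run on one experiment at a time, a setting chosen after seeing the data, Slc7a11 in TM-2-33 had −0.15 (adjusted p = 0.525) and Hmox1 in eIL-1-76 had 0.59 (adjusted p = 0.0837), whereas Srxn1 and Gclc passed in each. All nRestore mice at 9 h were from TM-2-33, which held no C57BL/6J mice.

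Markers of other cell types moved with surgery at 9 h, and in one hemisphere fewer cells of a type and less RNA per cell cannot be told apart. Of 10 choroid plexus markers 9 were lower and none higher, with a summed TPM of 7.35 to 2579 (median 29.6) in CHI and 11.6 to 6438 (median 53.2) in sham mice. Why this sum varied so widely among mice of the same surgery was not tested, so the lower markers are not shown to be a loss after CHI. Of 10 markers of pericytes and meningeal fibroblasts, Col1a2, Slc6a13, Lum and Igf2 were lower and Pdgfrb and Kcnj8 higher. The sums were 104 to 209 against 111.4 to 355. Of 10 markers of infiltrating myeloid cells 2 were abundant enough to test, Lcn2 and Cd14. Both were higher, with sums of 3.57 to 80.1 (median 7.06) against 1.43 to 6.02 (median 3.92). Cd14 had the highest median TPM of that list, 3.81, so the sum rests on few genes, and infiltration was not tested. Ly6g, Retnlg, Camp, Plac8 and Chil3 of that list had a median TPM of 0 over all mice. Of 8 red blood cell markers 5 were tested and 0 passed, although their sum reached 1385 (median 167.8) in CHI and 764 (median 24.7) in sham mice, and Slc4a1 and Epb42 had a median TPM of 0. The astrocyte sum was 1497 to 2049 in CHI and 1451 to 1914 in sham mice, with 4 markers higher and 2 lower. The microglial sum was 288.5 to 587 against 336 to 652, with 1 higher and 5 lower. Of 10 oligodendrocyte markers Ermn, Sox10 and Opalin were lower and none higher, with sums of 2755 to 7217 against 2999 to 7301. Of 10 endothelial markers Pecam1, Cldn5 and Ly6c1 were higher and Tek, Flt1 and Itm2a lower, with sums of 249.6 to 511 against 248 to 480.2. Of 10 neuronal markers Camk2a and Rbfox3 were higher and Tubb3 lower, with sums of 6789 to 11000 against 7732 to 9797.

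Each marker list's summed level was then added as a covariate to the fit over the strains at 9 h, one list at a time, a setting chosen after seeing the data. Srxn1 (0.39 to 0.41), Gclc (0.29 to 0.32), Hmox1 (0.47 to 0.90) and Slc7a11 (−0.59 to −0.39) were called in all 9 fits. Of all 16657 genes, 3046 (infiltrating myeloid list) to 5142 (microglial list) were called in these fits. Markers in the lists themselves moved with surgery, so cell composition and injury cannot be told apart in these fits. The smallest value of Hmox1, 0.47 (adjusted p = 0.00824), came with the infiltrating myeloid list and that of Slc7a11, −0.39 (adjusted p = 3.22e-06), with the pericyte and meningeal list. Txnrd1 was called in 8 of 9 and Gclm in 4 of 9. Nqo1 was called in 1, lower, with the infiltrating myeloid list (−0.39, adjusted p = 0.0179). Over 200 mice, after subtraction of group means, Slc7a11 had its highest correlation with the pericyte and meningeal sum (Pearson r = 0.56), Nqo1 with the choroid plexus sum (0.46), Nfe2l2 with the astrocyte sum (0.39), Hmox1 with the infiltrating myeloid sum (0.32) and Gclc with the neuronal sum (0.28). By Spearman rank correlation Nqo1 had only 0.24 with the choroid plexus sum, the same as with the oligodendrocyte sum. The highest Pearson value for Srxn1 was 0.20, with the microglial sum. The list mixes markers of pericytes and of meningeal fibroblasts, and they did not move together. In C57BL/6J mice at 9 h Pdgfrb and Kcnj8 of this list were higher and none lower. In eRestore mice Col1a2, Slc6a13, Lum and Igf2 were lower and none higher. Vtn (59.3), Rgs5 (56.8) and Igf2 (30.6) had the highest median TPM of the list, so its sum weighs these most. The part of cell composition in these results was not tested beyond these values.

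The 8 genes varied together only weakly from mouse to mouse. After subtraction of group means, the 28 pairs had Pearson correlations from −0.30 to 0.40 over 200 mice, which share libraries and experiments. The highest were Nfe2l2 with Nqo1 (0.40) and with Hmox1 (0.36). Against all 16213 other genes the 95th percentile was 0.30 for Nfe2l2, 0.30 for Nqo1 and 0.23 for Hmox1, so that these pairs lay above it. The glutamate-cysteine ligase pair Gclc and Gclm had 0.04 and Gclc with Srxn1 0.18, both below the 95th percentiles of Gclc (0.24) and Srxn1 (0.26). The lowest was Srxn1 with Slc7a11 (−0.30).

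**Figure D4:**
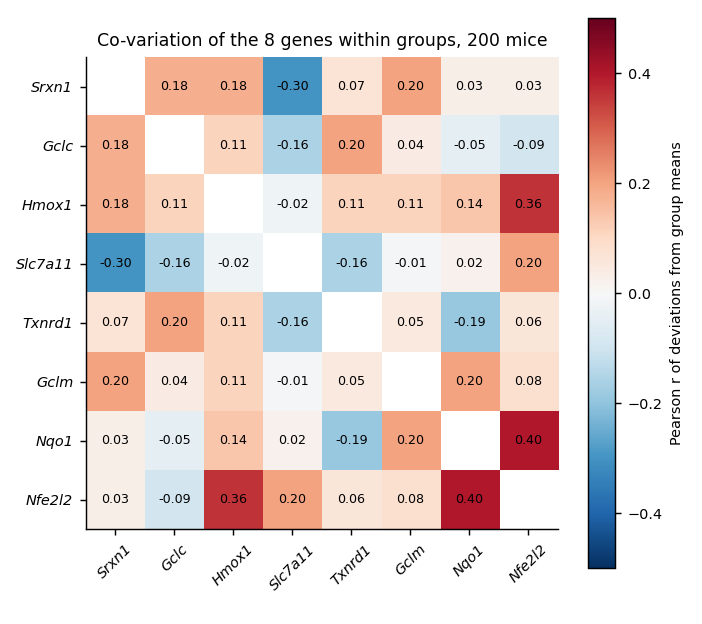
Pearson correlation (colour and number) of the deviations of each pair of genes from their group means over 200 mice. Nfe2l2 with Nqo1 (0.40) and Hmox1 (0.36) are the highest pairs and Srxn1 with Slc7a11 (−0.30) the lowest.

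Genes whose group means over the 24 groups most resembled those of each member were named by Pearson correlation among 16214 genes, and the 24 points share experiments within a time point. For Srxn1 these were Camkk1 (0.967), Tef (0.966), a circadian transcription factor, and Tbc1d22a (0.963). For Gclc they were Golm1 (0.933), Cmtm3 (0.928) and Prkab2 (0.917), a regulatory subunit of the energy sensor AMPK. For Hmox1 they were C3ar1 (0.917), the receptor of complement C3a, Osmr (0.911), the oncostatin M receptor, and Cavin1 (0.911), a component of caveolae. For Slc7a11 they were Ptgfr (0.973), Ranbp3l (0.970) and Ogn (0.960), a matrix proteoglycan. The nearest gene was Rgs2 for Txnrd1 (0.920), Rap1gap2 for Gclm (0.919), Pdpn for Nfe2l2 (0.811) and Nfkbid for Nqo1 (0.759). No member was among the 3 nearest genes of another.

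The pathway around these genes was described with 7 lists of 102 genes, none of them members. In the fit over the strains at 9 h, 99 rows were tested (Nnt has 2 rows in the table), of which 18 were higher and 8 lower after CHI. The share called, 26.3%, was close to the 26.5% of all genes. Of the 15 regulators and partners of Nrf2, 5 were higher and 2 lower. They include the small Maf proteins Maff (0.90, SE 0.15, adjusted p = 2.17e-06), Mafk (0.27, adjusted p = 0.0118) and Mafg (−0.24, adjusted p = 2.21e-05), which fell where the others rose. Keap1, the repressor of Nrf2, was 0.12 higher (adjusted p = 0.0014), the autophagy receptor Sqstm1 0.13 (adjusted p = 0.00053) and the Brca2 partner Palb2 0.33 (adjusted p = 0.0443), whereas the repressor Bach2 fell by 0.34 (adjusted p = 0.000404). At 24 and 72 h these 7 genes had log2 fold changes from −0.10 to 0.13, and none passed.

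Of 24 genes of glutathione synthesis and use tested at 9 h, 6 were higher and 1 lower. Slc3a2, the heavy chain that pairs with Slc7a11 in the cystine transporter, was 0.21 higher (SE 0.04, adjusted p = 0.000219), in contrast to Slc7a11 itself. Glutathione reductase Gsr was 0.18 higher (SE 0.04, adjusted p = 0.000263), Ggt7 0.17 (adjusted p = 6.61e-06), Gpx7 0.21 (adjusted p = 0.0225), Gsto1 0.19 (adjusted p = 0.0148) and the glutaredoxin Glrx 0.16 (adjusted p = 0.0124). The gene that was lower, named here after its values were seen, was Gpx8 (−0.52, SE 0.19, adjusted p = 0.0322). At 24 h the glutathione transferases Gsta3 (0.65, SE 0.18, adjusted p = 0.0361) and Gstp1 (0.11, SE 0.03, adjusted p = 0.0415) were higher. Of 14 thioredoxin and peroxiredoxin genes 3 were higher at 9 h and none lower, namely Sesn1 (0.35, SE 0.05, adjusted p = 5.93e-07), Sesn2 (0.13, adjusted p = 0.0203) and Txnrd3 (0.17, adjusted p = 0.0323).

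Of the 10 rows of genes of NADPH supply 2 were lower at 9 h and none higher, Idh1 (−0.11, adjusted p = 0.0124) and one of both rows of Nnt (−0.75, SE 0.28, adjusted p = 0.0393). Among single strains Nnt was called in C57BL/6J mice only (−1.91, SE 0.61, adjusted p = 0.0421). Its SE was large beside the median SE of 0.10 over all genes of that fit. The reason for this spread among mice was not tested, so the value is not shown to be an effect of injury. G6pdx, the first enzyme of the pentose phosphate pathway, was 0.15 higher at 24 h (SE 0.03, adjusted p = 0.003). Of 14 genes of heme and iron handling 2 were slightly higher, Hmox2 (0.09, adjusted p = 0.0304), the constitutive heme oxygenase, and Ncoa4 (0.10, adjusted p = 0.0332), the ferritin receptor of autophagy. Of 17 quinone, aldehyde and xenobiotic genes 2 were higher, Abcc4 (0.19, adjusted p = 0.0296) and Cbr3 (0.19, adjusted p = 0.0322), and 3 lower, Ugdh (−0.15, adjusted p = 0.00369), Cbr1 (−0.11, adjusted p = 0.0325) and Akr1b3 (−0.10, adjusted p = 0.0272). Abcc3 was higher at 72 h (0.35, SE 0.09, adjusted p = 0.0359). Of the 5 genes of superoxide dismutases and catalase none passed at any time. The medians of the lists at 9 h lay between −0.06 and 0.04, beside −0.01 over all genes and 0.09 over the 8 members. At 24 h 3 of 97 rows passed (3.09%) and at 72 h 1 of 97 (1.03%).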

How the data were processed

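Bulk RNA of one hemisphere per mouse, from poly(A)-selected libraries, was measured in 200 mice. The authors aligned reads to GRCm39 with STAR and quantified them with Salmon. The authors deposited estimated counts, which Salmon assigned to each gene and which are not normalized (27.6% of non-zero values are not whole). The authors also deposited TPM values, which Salmon scaled within each sample for transcript length and depth. The annotation release is not given in the sources used here.

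After rounding, each comparison was fitted in edgeR 4.0.16 under R 4.3.3 (TMM factors, robust quasi-likelihood F test), adjusting for sex and age, and for strain where strains were pooled. Sex was left out for IL-1R1 nRestore mice at 72 h, all male. A gene was kept if it reached 10 counts in a number of mice equal to the smallest group, and all 8 members passed in every comparison. Benjamini-Hochberg adjustment ran over all genes tested, with a threshold of 0.05. The SE is the absolute log2 fold change divided by the square root of F, and 95% intervals are normal intervals from it. Normalized counts are scaled to the mean effective library size of 22742369. Correlations used log2 of normalized counts plus 1. The fits were tested on simulated data. Intervals cover the spread between mice, and total counts ranged from 14857985 to 57355676. Reads carried no molecular identifiers, so duplicates of a molecule may be counted more than once. The labels name each mouse's own library, and nothing more is given on litters or cages.

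The study used DESeq2 with offsets for gene length, which was run as an alternative for the single-strain fits with DESeq2 1.42.0. Other alternatives were DESeq2's own size factors, RLE factors, filters, covariates, single experiments and leaving out mice. The 8 genes and the gene lists were chosen with earlier results of these data known. All 8 genes were named in each comparison. Genes of the pathway lists were named where called over the 4 strains or in 2 single fits, up to 8 per list with the smallest p. For each member the 3 genes most like it were named. Columns of values that belong to no sample numbered 0.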

Additional observations from a re-analysis of the deposited data

Results flagged for a closer look

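In groups of 4 to 10 mice, a mouse stood apart from the rest of its group, by Dixon's 95% criterion, in 5 of 128 combinations of gene and group. About 1 in 20 would by chance. In mice labelled IL-1R1 gKO with sham surgery at 9 h, the same mouse (replicate 6) was apart in Hmox1, at 124.8 normalized counts against 44.1 to 64.9 in the other 5, and in Gclc, at 1634 against 1289 to 1402. In Hmox1 of nRestore sham mice at 72 h the highest mouse had 90.9 against 56.7 to 64.2. In Gclm of eRestore sham mice at 24 h it had 1644 against 1495 to 1522. In Slc7a11 of gKO sham mice at 24 h it had 2596 against 1556 to 1882.

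The CHI effect differed between time points for 4 genes in C57BL/6J mice (edgeR). At 9 h minus 24 h the differences of log2 fold changes were 1.13 for Hmox1 (adjusted p = 0.00363), −0.51 for Slc7a11 (adjusted p = 0.0467), 0.39 for Gclc (adjusted p = 5.13e-05) and 0.38 for Srxn1 (adjusted p = 0.000402). At 9 h minus 72 h they were −0.66 for Slc7a11 (adjusted p = 0.00564), 0.43 for Gclc (adjusted p = 5.24e-06) and 0.42 for Srxn1 (adjusted p = 6.82e-05). Srxn1 also differed in eRestore mice, by 0.32 (adjusted p = 0.0362) and 0.41 (adjusted p = 0.000218), and in nRestore mice, by 0.37 (adjusted p = 0.0428) and 0.45 (adjusted p = 0.00701). Time and experiment cannot be told apart in these 11 differences.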

How the results depend on the processing

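Under 2828 alternative values for 384 values of the 8 genes, 2789 kept their direction or stayed uncalled on the same side of the threshold, 23 lost the call, 15 gained it and 1 turned. Of values uncalled under both settings, 160 changed sign. The turned value was Gclm over the 4 strains at 9 h, −0.0087 in experiment eIL-1-80 alone. Its call was also lost in the other 2 experiments (0.10 and 0.04), without a filter (0.08), without C57BL/6J (0.07), eRestore (0.08) or nRestore mice (0.06) and with 5 marker lists as covariates (0.06 to 0.08). The cause was not tested. Counts of DEGs among the 8 genes moved as follows. Experiment eIL-1-76 alone gave 3 in place of 6 over the 4 strains at 9 h, where 1604 of 16926 genes were called. With DESeq2 the counts were 3 in gKO mice at 9 h and 1 over the strains at 24 h. At 9 h against 24 and 72 h they were 1 and 1 for gKO and 2 and 3 for eRestore mice. In each of these fits DESeq2 also called more of all genes tested than edgeR did. The higher counts are therefore not shown to be particular to the 8 genes. With experiment in place of age the counts among the 8 were 1 in gKO mice at 9 h, 0 between sham mice of nRestore and C57BL/6J at 24 h, 2 for eRestore mice at 9 h against 72 h and 0 for nRestore mice at 9 h against 24 h. In the same order, 77 of 16604, 401 of 18495, 140 of 17963 and 13 of 18346 of all genes were called. Without age the count was 2 for eRestore mice at 9 h against 24 h, where 59 of 17963 genes were called. Leaving out 1 sham mouse gave 0 to 2 both in gKO mice (2 without replicate 6) and in nRestore mice at 9 h (0 without replicate 3, which also ended Srxn1, adjusted p = 0.136; 1 without replicate 1 or 4). In C57BL/6J mice at 9 h, leaving out each mouse in turn gave log2 fold changes of 0.42 to 0.49 for Srxn1, 0.39 to 0.45 for Gclc, 0.97 to 1.21 for Hmox1 and −0.62 to −0.48 for Slc7a11, all called. The share of all genes called was not recorded for any fit that left out a mouse. Over the 4 strains, the fits of each experiment alone, with marker covariates and without gKO sham replicate 6 were chosen after seeing the data, as was leaving out C57BL/6J CHI mice. No paired analysis was possible because the labels give no replicate numbers shared between groups. Depth limits Hmox1 and Nqo1 most, with median counts of 71 and 73.5.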
